A study of Mus musculus with 24 samples.

Results

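The mitochondrial ribosomal protein genes were taken as the genes whose probes carried a symbol made of Mrpl or Mrps and a number in the deposited annotation. The rule found 72 genes with 105 probes among the 17871 genes and 25697 probes of the table. A probe was kept where its detection p-value, the chance of its signal arising from background, was 0.02 or less on at least 1 array. This left 68 of the 72 genes, with 95 of their probes, among 10418 genes and 14246 probes. Mrpl19, Mrpl21, Mrpl32 and Mrps36 had no probe kept, so counts below are out of 68. Where a gene had several kept probes, which could be so for the 21 members with more than 1 probe, the brightest was used, and no member had called probes of opposite sign in any comparison.

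The arrays compared BAF180-deficient with wild-type (WT) CD4 T cells of the mouse on Illumina MouseRef-8 BeadChips. BAF180, encoded by Pbrm1, is the subunit that defines the PBAF form of the SWI/SNF chromatin remodeling complex. In the mutant mice a floxed exon of the gene was removed by Cre under the control of the CD4 promoter, which acts in developing T cells late in the thymus, so the deletion preceded every state studied. The labels give the strain as Balb/c, whereas the study's methods describe a mixed background. Naïve CD4+CD62L+ T cells were purified to 95% from spleens and lymph nodes of mice aged 4 to 6 weeks. Resting Naïve cells were taken after purification, and stimulated Naïve cells after 24 h of activation by antibodies to CD3 (1 µg/ml) and to CD28 (2 µg/ml). Th2 cells were made from the same kind of cells by the same antibodies together with 10 ng/ml of IL-4 and 10 µg/ml of anti-IFN-γ, received 100 U/ml of IL-2 at 24 h and were expanded in IL-2 from day 3. Resting Th2 cells were analyzed as such, and stimulated Th2 cells after 1.5 h of exposure to 50 ng/ml of PMA combined with 500 ng/ml of ionomycin. Each of the 4 states had 3 WT and 3 BAF180-deficient arrays with the replicate letters A, B and C, 24 arrays in all. The study states that the array data came from 3 pairs of WT and mutant mice, but the labels do not tie a letter to a mouse or a pair. The number of arrays limits the precision of the p-values.

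Mitochondria carry their own ribosomes, which translate the few messages of mitochondrial DNA into core subunits of the respiratory chain. Their RNA is made in the mitochondrion, whereas all of their proteins are encoded in the nucleus, made on cytosolic ribosomes and imported. The large subunit forms peptide bonds and holds the exit tunnel, the small subunit decodes the message, and each holds proteins with a bacterial counterpart beside others found only in mitochondria. When a Naïve T cell is activated through its antigen receptor it grows and builds new mitochondria before it divides, which raises its need for mitochondrial proteins.

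Levels are given as log2 of the background-corrected, quantile-normalized intensity, and differences as log2 differences between group means of 3 arrays each. Pbrm1 was measured first as a check of the labels. Its levels on arrays A, B and C were 8.20, 8.72 and 8.69 in WT resting Naïve cells and 7.88, 7.28 and 7.41 in BAF180-deficient ones. In resting Th2 cells they were 9.06, 9.06 and 8.88 in WT and 7.16, 7.23 and 7.02 in the mutant. Every mutant array lay below every WT array of its state. The differences were −1.01 and −1.63 in Naïve cells at rest and after stimulation, and −1.86 and −1.42 in Th2 cells at rest and after restimulation, with limma adjusted p of 0.121, 0.00746, 0.00101 and 0.0141, and they kept their sign under each other scaling of the arrays. The adjusted p were 0.291, 0.0461, 0.0398 and 0.0794 under Z-score normalization and 1, 1, 0.676 and 0.879 under median centring, so no difference was called under the latter. The position of the probe relative to the deleted exon was not determined.

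Markers of the labelled cells were then read. All 8 T cell markers were detected in every group. Their summed level had a mean of 13.94 in resting Naïve cells of each genotype. In stimulated Naïve cells the means were 12.89 (WT) and 13.03 (BAF180-deficient). The median difference of these markers on stimulation was −0.75 and −0.66. The 5 markers of Naïve T cells had a summed level of 11.46 to 12.08 on the resting Naïve arrays and, in resting Th2 cells, means of 11.72 (WT) and 11.33 (BAF180-deficient), so they do not set these 2 states apart. Their means were 9.09 and 9.17 in stimulated Naïve and 10.44 and 10.28 in stimulated Th2 cells, and on stimulation of Naïve cells 4 fell in WT and 5 in BAF180-deficient cells, or 2 and 3 under median centring. Of 5 markers of activated T cells 4 and 3 rose and 1 fell. Il2ra, the receptor subunit that T cells gain on activation, rose by 3.04 in WT and 2.98 in BAF180-deficient cells on stimulation of Naïve cells. Cd69, another activation marker, was already at a mean of 11.87 and 11.80 in resting Naïve cells and was the marker that fell, by 1.43 and 1.61, a call not made under median centring of each array. Of 6 Th2 markers, Il5, Il13, Ccr4 and Il1rl1 were undetected in resting Naïve cells, Il1rl1 was undetected in stimulated Naïve and resting Th2 cells also, and Ccr4 in WT stimulated Th2 cells. Il5, Il13 and Ccr4 were thus detected in stimulated Naïve cells too. Il4 had means of 9.64 (WT) and 9.80 (BAF180-deficient) there. The 6 markers summed to 10.92, 10.13 and 10.26 on the WT stimulated Naïve arrays. On the WT resting Th2 arrays the sums were 11.07, 10.62 and 10.33. The sums overlapped in both genotypes, so they do not set these 2 states apart. The markers' median difference, resting Th2 against stimulated Naïve cells, was −0.17 in WT and −0.27 in BAF180-deficient cells. Gata3, the transcription factor that specifies Th2 cells, had WT means of 7.97 and 8.67 in Naïve cells before and after stimulation and of 9.60 and 10.74 in Th2 cells before and after restimulation, and Il4 reached 14.02 in WT and 14.14 in BAF180-deficient stimulated Th2 cells.

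The resting Naïve arrays also carried transcripts of other cell types, which bears on every comparison against them. Of 7 myeloid markers 5 were kept, and their summed level was 11.48, 11.82 and 13.34 on the WT and 11.81, 12.25 and 12.37 on the BAF180-deficient arrays, against 6.68 to 7.33 on the 18 arrays of the other states. The brightest was Lyz1, with means of 11.18 and 11.34, and Lyz2 and Cd14 were undetected in the other states. All 5 fell in stimulated Naïve and in resting Th2 cells of both genotypes, with medians from −4.69 to −5.16 on the log2 scale when undetected genes are held at their bound, explained below. The 3 erythroid markers summed to 11.24, 8.44 and 13.57 on the WT and 11.88, 12.39 and 12.54 on the mutant arrays, against 5.93 to 8.37 elsewhere. Hba-a1 was the brightest, Hbb-b1 and Alas2 were undetected in the other states, and 1 of the 3 fell in WT and 2 in BAF180-deficient cells. The 5 B cell markers summed to 8.64 to 10.04 against 6.64 to 8.88, with Cd79b the brightest and Ms4a1 undetected in WT resting Naïve cells. Of these, 2 fell on stimulation of Naïve cells in each genotype, and 2 in WT and 3 in BAF180-deficient cells in resting Th2 cells. The 2 kept NK cell markers, of 3, summed to 6.52 to 8.23 against 5.20 to 6.14, Klrd1 being the brighter, and 1 fell in each comparison. Cd8b1, the kept marker of 2 for CD8 T cells, lay at 8.15 to 8.97 against 6.44 to 8.48 and fell in BAF180-deficient cells only, by 1.42 on stimulation and by 1.40 in resting Th2 cells, with differences of −0.77 and −0.59 in WT whose sign flipped under median centring. These samples are bulk RNA, in which fewer cells of a type and less RNA per cell cannot be told apart. The part of these markers in the results for the ribosomal proteins was not tested.

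Mitochondrial ribosomal protein transcripts were least abundant in resting Naïve cells. At rest in Naïve cells, 55 members were detected on all 3 WT arrays and 56 on all 3 BAF180-deficient ones, compared with 66 in both genotypes after stimulation, 64 and 62 in resting Th2 cells and 65 in both after restimulation. Of the 68 members, 7 were detected on no WT resting Naïve array and 6 on no BAF180-deficient one. The mean level was lowest in resting Naïve cells for 58 members in WT and 55 in BAF180-deficient cells, and highest in stimulated Naïve cells for 53 and 54. Another 11 members were highest in stimulated Th2 cells in each genotype. Over all probes, the median number detected was 8550 per WT array of resting Naïve cells against 9473, 10123 and 9398 in the other 3 states.

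For each array, the median over members of the level minus the gene's mean in WT resting Naïve cells was taken. It was −0.12, 0.08 and 0.06 on the WT resting Naïve arrays, and 1.05, 1.05 and 1.27 on the WT stimulated Naïve arrays. It was 0.67, 0.58 and 0.68 in WT resting Th2 and 0.68, 0.92 and 0.85 in WT stimulated Th2 cells. The stimulated Naïve arrays lay above all others in both genotypes, at 1.04, 1.18 and 1.24 in BAF180-deficient cells, and the resting Naïve arrays below all others. The Th2 arrays lay between. In WT every stimulated Th2 array lay above every resting one, by little for the nearest, and in BAF180-deficient cells they overlapped, with 0.65, 0.67 and 0.93 at rest and 0.80, 0.62 and 0.94 after restimulation. The 73 kept nuclear genes of respiratory chain subunits, which work with the products of the mitochondrial ribosome, had group means of −0.02, 0.82, 0.74 and 0.70 in WT in the same order of states. The 68 kept cytosolic ribosomal protein genes had group means of 0.01, 0.14, 0.19 and 0.30.

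**Figure D1:**
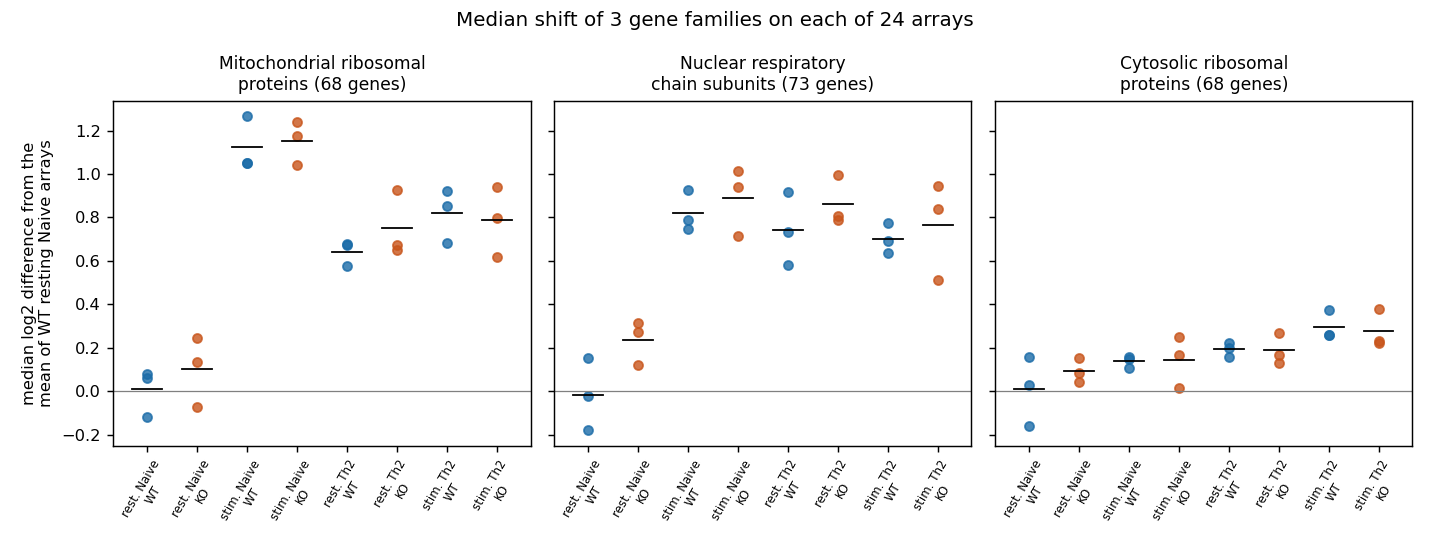
Median log2 difference from the mean of the WT resting Naïve arrays (vertical axis) on each of the 24 arrays, by state, for the 68 mitochondrial ribosomal protein genes, the 73 respiratory chain genes and the 68 cytosolic ribosomal protein genes; each dot is 1 array, blue for WT and orange for BAF180-deficient cells, and black lines are group means. The group mean of the mitochondrial ribosomal protein genes was 1.12 in WT stimulated Naïve cells, and that of the cytosolic ribosomal protein genes was 0.14, a rise that turned into a fall under Z-score normalization.

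Stimulation of Naïve cells for 24 h raised most members. A gene was called in comparisons of states where its limma adjusted p over all kept probes was below 0.05. In WT cells 62 of 68 members rose and 0 fell, where 23.3% of all genes rose and 21.9% fell. In BAF180-deficient cells 60 rose and 0 fell, where 22.1% of all genes rose and 21.3% fell. The members' median difference was 1.12 in WT and 1.08 in BAF180-deficient cells, against −0.01 over all genes in each. With the members that were undetected in resting Naïve cells held at their bound the medians were 1.11 and 1.06. Median centring of each array, which moved the median of all genes to 0.25 and 0.27, left the members 1.68 and 1.69 above that median.

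The largest rises in WT cells, among members detected at rest, were in both subunits. Mrps6, a small subunit protein with a bacterial counterpart of the same number, had levels of 6.33, 6.35 and 5.91 in WT resting Naïve and 9.08, 8.83 and 9.0 in WT stimulated Naïve cells. In BAF180-deficient cells the levels were 6.35, 6.39 and 6.87 before and 8.75, 8.99 and 8.94 after stimulation. The groups stood well apart, and Mrps6 rose by 2.77 (SE 0.22), a 6.84-fold change, in WT cells with an adjusted p of 3.39e-09, and by 2.36, a 5.13-fold change, in BAF180-deficient cells. Mrps22, a small subunit protein found only in mitochondrial ribosomes, went from 6.39, 6.33 and 6.41 to 8.84, 8.23 and 8.58 in WT and from 6.53, 6.46 and 6.60 to 8.48, 8.15 and 8.32 in BAF180-deficient cells. Its resting values lay close together, and it rose by 2.17 (SE 0.14, adjusted p 2.77e-10) in WT and by 1.79 in BAF180-deficient cells. Mrps10, whose bacterial counterpart sits in the head of the small subunit, went from 5.50, 6.13 and 6.10 to 8.10, 7.65 and 7.83 in WT and from 5.79, 5.80 and 5.75 to 8.17, 7.92 and 7.81 in BAF180-deficient cells. No array of resting cells came near those of stimulated cells, and the rises were 1.95 (SE 0.16, adjusted p 4.62e-09) and 2.19. Mrps28 was detected on 2 of 3 WT resting arrays, with levels of 4.72, 5.66 and 5.48, and stood at 7.18, 7.64 and 7.67 after stimulation. Its values in BAF180-deficient cells were 6.06, 6.25 and 5.90 before and 6.95, 7.58 and 7.76 after stimulation. The WT resting arrays were thus the lowest of the 4 groups, and the rise was about 2.21 in WT (SE 0.26, adjusted p 7.27e-07) and 1.36 in BAF180-deficient cells.

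Among large subunit proteins, Mrpl20 went from 5.87, 6.70 and 6.66 to 8.23, 8.56 and 8.72 in WT and from 6.94, 6.38 and 6.63 to 8.30, 8.98 and 8.54 in BAF180-deficient cells. It rose by 2.09 (SE 0.23, adjusted p 2.79e-07) and 1.96, with no overlap. Mrpl17, which lies at the rim of the exit tunnel, went from 7.11, 7.66 and 7.62 to 9.28, 9.38 and 9.61 in WT and from 8.0, 7.33 and 7.62 to 9.30, 9.94 and 9.56 in BAF180-deficient cells. The rises were 1.96 (SE 0.20, adjusted p 1.02e-07) and 1.95. Mrpl12, the stalk protein that contacts translation factors, went from 8.55, 8.80 and 8.99 to 10.74, 10.41 and 10.79 in WT and from 8.94, 8.92 and 9.04 to 10.88, 10.78 and 10.80 in BAF180-deficient cells. It rose by 1.86 in each genotype, with an SE of 0.16 and an adjusted p of 9.42e-09 in WT. Mrpl36, a small zinc-binding protein of the large subunit, went from 7.60, 8.21 and 8.54 to 9.46, 10.02 and 10.27 in WT cells. Its WT resting arrays were the most spread of these large subunit members, and it rose by 1.80 (SE 0.25, adjusted p 6.05e-06) in WT and by 1.44 in BAF180-deficient cells.

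The brightest probes of several members were undetected on all 3 resting arrays, so only a lower bound of the rise of that probe can be given. The bound sets the mean after stimulation against, on each resting array, the higher of the probe's own signal and the lowest signal of any detected probe. By this measure Mrpl55 was at least 2.42-fold higher after stimulation in WT and at least 2.57-fold in BAF180-deficient cells, and Mrps27, a member with RNA-binding repeats, at least 2.15-fold and 1.51-fold. Mrps2, a small subunit protein with a bacterial counterpart, was at least 1.78-fold and 1.77-fold higher, and Mrpl15 at least 1.38-fold and 1.43-fold. The brightest probe of Mrpl51 was at least 1.12-fold and 1.33-fold higher, while its other kept probe, with means of 4.63 and 4.45 in WT and 4.38 and 4.56 in BAF180-deficient cells before and after stimulation, was not called. Mrpl39 was at least 1.13-fold higher in WT, and its rise was not called in BAF180-deficient cells.

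The members that were not called in WT cells were Mrps23 with a difference of 0.44, Mrps9 with 0.24, Mrps34 with 0.14, Mrpl9 with 0.06, Mrps14 with −0.16 and Mrpl45, whose brightest probe was undetected in both groups. These 6 include probes close to background. The brightest probe of Mrpl45 was detected on 2 of the 24 arrays, and Mrps14 had levels of no more than 5.01 on every array. In BAF180-deficient cells Mrpl24, Mrpl23, Mrps34, Mrps9, Mrpl9 and Mrps14 were not called, with differences of 0.49, 0.43, 0.38, 0.29, 0.26 and 0.00, nor were Mrpl39 and Mrpl45, whose brightest probes were each undetected in 1 of the groups.

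**Figure D2:**
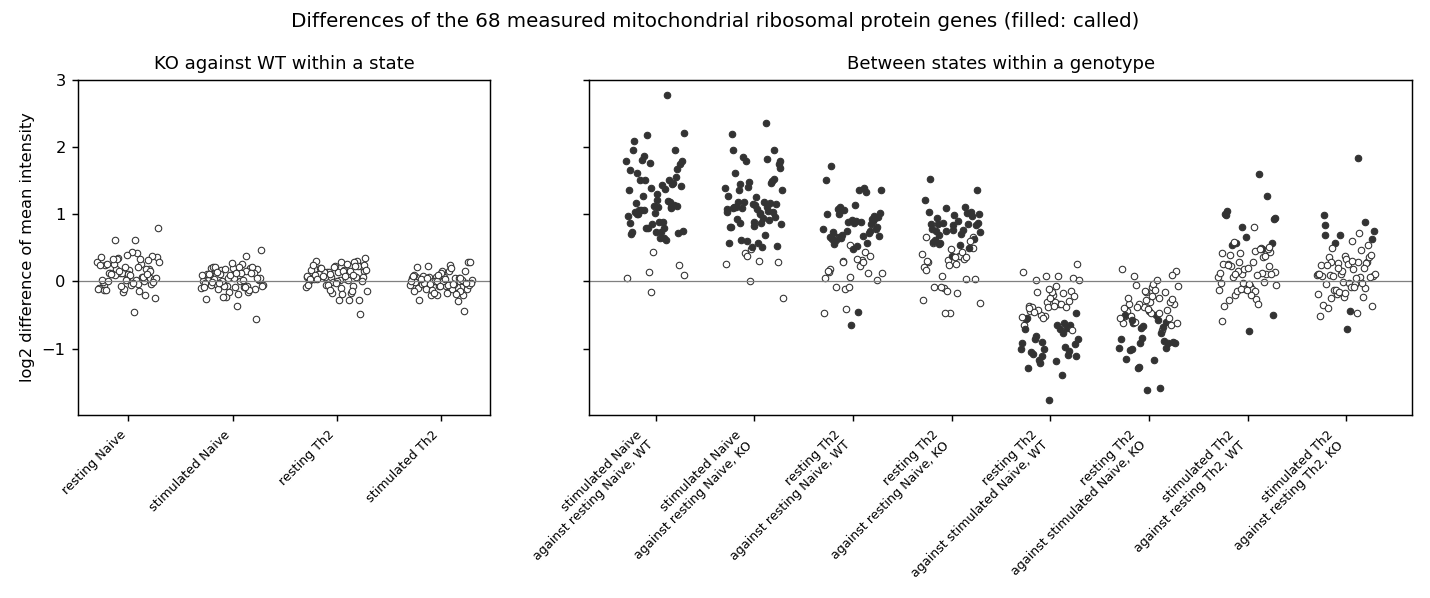
Log2 difference (axis in log2 units) of each of the 68 mitochondrial ribosomal protein genes in the 4 comparisons of BAF180-deficient with WT cells and in the 8 comparisons of states; each point is 1 gene and filled points were called. Stimulated Naïve against resting Naïve cells gave medians of 1.12 in WT and 1.08 in BAF180-deficient cells, whereas no gene was called between genotypes without a block for the replicate letter, and the median of 0.11 for stimulated against resting BAF180-deficient Th2 cells turned negative under median centring.

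The rise was spread over both subunits and over proteins with and without a bacterial counterpart. Of 42 kept genes of the large subunit, counted with Mrps18a and Mrps30 for their place in the structure, 40 rose in WT and 37 in BAF180-deficient cells, with medians of 1.11 and 1.08. Of 26 kept small subunit genes 22 and 23 rose, with medians of 1.22 and 1.13, or 1.14 and 1.04 with undetected members at their bound. Proteins with a bacterial counterpart rose in 39 of 42 cases in WT and 37 in BAF180-deficient cells, with medians of 1.14 and 1.09, and proteins found only in mitochondria in 23 of 26 cases in both, with medians of 1.11 and 1.06. None of these groups had a member that fell in these comparisons.

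The stalk of the large subunit recruits the factors that drive initiation and elongation. All 6 kept genes of its list, which holds the stalk, its base and neighbouring proteins, rose in both genotypes. Besides Mrpl12 these were Mrpl1 with 1.78 in WT and 1.39 in BAF180-deficient cells, Mrpl53 with 1.20 and 1.11, Mrpl54 with 1.14 and 1.03, Mrpl11 with 1.00 and 0.93, and Mrpl10 with 0.73 and 0.80. The exit site, where the new protein leaves the tunnel next to the inner membrane, was represented by 7 genes. Mrpl47, which the table lists under an older symbol and which is therefore not among the 68, rose by 2.14 and 2.07, and Mrpl22 by 1.52 and 1.37. Mrpl24 and Mrpl23 rose by 0.85 and 0.79 in WT cells, while their differences of 0.49 and 0.43 in BAF180-deficient cells were not called. Mrpl23 read 9.56, 9.52 and 8.44 on the WT resting Naïve arrays. Mrpl24 read 7.2, 8.1 and 8.0 on the BAF180-deficient stimulated Naïve arrays. For both genes the contrast between genotypes thus leans on single arrays, and so do the counts that follow. In all 6 of the 7 rose in WT, with a median of 0.85, and 3 in BAF180-deficient cells, with a median of 0.49. Mrpl45, which ties the exit site to the membrane, was not called in either.

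Resting Th2 cells, days after their first activation, held an intermediate position. Against resting Naïve cells 43 members were higher and 2 lower in WT, where 17.9% of all genes were higher and 17.6% lower. In BAF180-deficient cells 36 were higher and 0 lower, where 18.2% of all genes were higher and 17.5% lower. Without BAF180-deficient resting Th2 array C, on which the B cell markers summed to 8.88 against 7.40 and 7.16 on arrays A and B and Cd8b1 lay at 8.03 against 6.46 and 6.58, the 36 became 21, and under median centring they became 61. The members' medians were 0.67 in WT and 0.58 in BAF180-deficient cells against 0.00 over all genes, or 0.65 and 0.58 with undetected members at their bound, and lay 1.06 and 1.09 above the medians of all genes, 0.34 and 0.59, under median centring. Part of the markers of other cell types fell in these comparisons too, as given above, and their part was not tested. Comparisons of states within a genotype that name the same state share its arrays, so their counts are not independent.

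Mrpl20 again stood high, with levels of 8.29, 7.84 and 8.27 in WT and 7.95, 7.99 and 8.56 in BAF180-deficient resting Th2 cells. All of these lay above the resting Naïve arrays, and the rise was 1.72 in WT, a 3.30-fold change with an adjusted p of 6.18e-06, and 1.52 in BAF180-deficient cells. Mrps18c, a small subunit protein with a bacterial counterpart, went from 7.45, 7.36 and 6.71 in WT resting Naïve to 8.67, 8.39 and 8.99 in WT resting Th2 cells, a rise of 1.51 with an adjusted p of 9.72e-05, and it rose by 1.21 in BAF180-deficient cells. Mrps6 rose by 1.39 in WT and 0.76 in BAF180-deficient cells. Mrps28, detected on 2 of 3 WT resting Naïve arrays, rose by about 1.36 and by 0.74. Mrpl52 rose by 1.35 and 0.89, Mrpl16, detected on 1 of 3 WT and 2 of 3 BAF180-deficient resting Naïve arrays, by about 1.34 and 1.11, Mrps15, detected on 2 of 3 resting Naïve arrays of each genotype, by about 1.13 and 0.77 and Mrps33 by 1.10 and 0.56. The fitted rise was smaller in BAF180-deficient cells for all 8, which were chosen by their WT values, and the difference between genotypes was called for none of them.

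The 2 members called lower in WT resting Th2 than in WT resting Naïve cells were Mrpl38 and Mrps5. Mrpl38, a protein of the central protuberance found only in mitochondria, had levels of 8.25, 8.54 and 9.15 in resting Naïve, 10.01, 9.55 and 9.74 in stimulated Naïve and 7.97, 8.23 and 7.80 in resting Th2 cells of WT mice. The resting Th2 arrays lay just below the resting Naïve ones, and the difference of −0.65 (adjusted p 0.0131) turned into 0.27 under median centring. Mrps5, whose bacterial counterpart helps keep decoding accurate, had WT levels of 7.56, 7.75 and 7.72, then 8.40, 8.30 and 8.54, then 7.08, 7.32 and 7.27 in these 3 states. Its difference of −0.45 (adjusted p 0.0299) likewise turned into 0.44 under median centring. In BAF180-deficient cells the differences were −0.47 for Mrpl38 and −0.18 for Mrps5, neither called, and their signs flipped under median centring, to 0.80 and 0.99, with 0.15 for Mrps5 under Z-score normalization.

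Against stimulated Naïve cells, resting Th2 cells had lower levels of many members. In WT 31 members were lower and 0 higher, where 12.1% of all genes were lower and 11.4% higher. In BAF180-deficient cells 28 were lower and 0 higher, where 11.1% of all genes were lower and 10.9% higher. The members' medians were −0.52 and −0.51, and the counts became 6 and 2, all lower, under median centring, where the calls over all genes went from 2455 to 833 in WT and from 2296 to 1130 in BAF180-deficient cells. The members' medians relative to all genes were then −0.64 and −0.40, so the direction was kept. On the arrays of these groups the myeloid markers summed to at most 7.33, but the B cell markers reached 8.88 and Cd8b1 8.41 in resting Th2 and the erythroid markers 8.37 in stimulated Naïve cells, and their part was not tested.

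Mrpl38 had the largest fall among called members, with differences of −1.77 in WT (SE 0.19, adjusted p 1.28e-06) and −1.62 in BAF180-deficient cells, whose resting Th2 arrays read 8.28, 8.18 and 8.23 against 9.94, 9.89 and 9.72 in stimulated Naïve cells. Mrps6 went back to 7.26, 7.34 and 8.14 in WT and 7.19, 7.11 and 7.60 in BAF180-deficient resting Th2 cells. It fell by 1.39 and 1.59, remaining above its resting Naïve level. Mrps10 fell by 1.28 in WT and 1.15 in BAF180-deficient cells, to 6.70, 6.47 and 6.55 and to 6.76, 6.76 and 6.93. Mrps12, whose bacterial counterpart forms part of the decoding center, went from 10.48, 9.94 and 10.37 to 9.21, 8.74 and 9.19 in WT cells, and at rest in Naïve cells it had stood at 8.97, 8.88 and 8.41. It fell by 1.22 in WT and by 1.27 in BAF180-deficient cells, and its resting Th2 and resting Naïve arrays overlapped. Mrps5 fell by 1.19 and 1.18 and Mrpl12 by 1.17 and 1.28, the latter to 9.26, 9.42 and 9.74 in WT cells, above its resting Naïve arrays. The stalk list followed Mrpl12, with 5 of 6 genes lower in WT and 4 in BAF180-deficient cells and medians of −0.89 and −0.88. In WT these were also Mrpl11 with −1.08, Mrpl1 with −1.01, Mrpl53 with −0.77 and Mrpl10 with −0.54, while Mrpl54, with −0.29, was not called. The fall of Mrpl10 was that of its brightest probe only. Its other kept probe had means of 8.32 in stimulated Naïve and 8.41 in resting Th2 cells in WT. In BAF180-deficient cells these were 8.38 and 8.45.

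**Figure D3:**
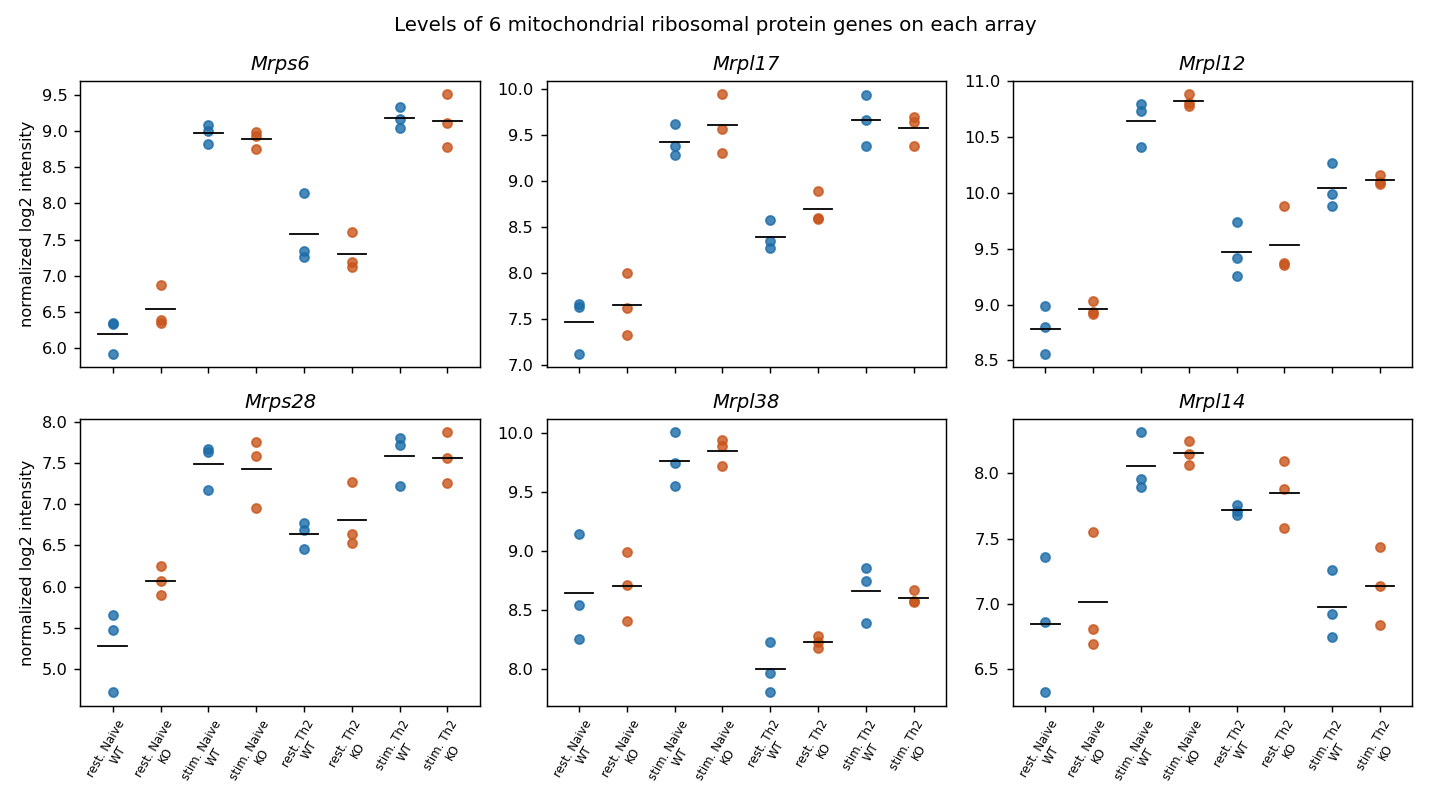
Normalized log2 levels (vertical axis) of Mrps6, Mrpl17, Mrpl12, Mrps28, Mrpl38 and Mrpl14 on each of the 24 arrays, by state, with WT in blue and BAF180-deficient cells in orange; each dot is 1 array and lines are group means. Mrps6 lay between 8.75 and 9.08 in stimulated Naïve and between 5.91 and 6.87 in resting Naïve cells, and the low resting Th2 values of Mrpl38 relative to resting Naïve cells were not kept under median centring.

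Restimulation of Th2 cells for 1.5 h moved fewer members. In WT 13 rose and 2 fell, where 12.5% of all genes rose and 15.9% fell, and in BAF180-deficient cells 9 rose and 2 fell, where 11.7% rose and 15.4% fell. The share of members that rose was thus above that of all genes in WT and near it in BAF180-deficient cells. The medians of the members were 0.20 and 0.11 against −0.01 over all genes. Over all alternatives, single arrays left out included, they ranged from 0.13 to 0.44 in WT and from −0.36 to 0.20 in BAF180-deficient cells. The scaling of the arrays mattered here: under median centring 4 rose and 0 fell in WT and 1 rose and 2 fell in BAF180-deficient cells, and the medians became 0.44 in WT and −0.36 in BAF180-deficient cells, or 0.40 and −0.13 relative to all genes, whose medians moved to 0.04 and −0.22. In BAF180-deficient cells the 11 calls became 5 without resting Th2 array A and 7 without resting Th2 array B. Cd79b, a B cell marker, had means of 6.17 in WT and 6.79 in BAF180-deficient Th2 cells at rest and 4.72 and 5.11 after restimulation, differences that were not called, and the part of such cells was not tested.

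In WT Th2 cells the members with the largest called rises were Mrps6 and Mrpl17. Mrps6 reached 9.16, 9.34 and 9.04 in WT and 9.51, 9.11 and 8.78 in BAF180-deficient stimulated Th2 cells, rises of 1.6 (SE 0.22, adjusted p 1.22e-05) and 1.83 that brought it to or above its levels in stimulated Naïve cells, with 8.78 the lowest array. Mrpl17 went from 8.26, 8.57 and 8.34 to 9.38, 9.93 and 9.66 in WT and from 8.60, 8.58 and 8.89 to 9.69, 9.38 and 9.64 in BAF180-deficient cells. No stimulated array overlapped with a resting one, and it rose 2.4-fold in WT (adjusted p 5.20e-05) and by 0.88 in BAF180-deficient cells. Mrps2 went from 5.06, 5.33 and 5.49 to 6.21, 6.31 and 6.52 in WT and rose by 1.05, with 0.68 in BAF180-deficient cells. Mrps10 rose by 1.01 and 0.98, Mrpl20 by 0.99 and 0.85, Mrps28 by 0.94 and 0.75, Mrps18b by 0.92 and 0.63 and Mrpl50 by 0.80 and 0.69. Of the 8, Mrps6, Mrpl17, Mrps10, Mrpl20 and Mrps28 were also among the 8 largest rises in stimulated Naïve cells, a comparison that shares no array with this one.

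Falls were few. Mrpl14, a large subunit protein at the interface with the small subunit, went from 7.71, 7.68 and 7.76 to 6.74, 7.26 and 6.92 in WT and from 7.88, 7.58 and 8.09 to 7.43, 6.84 and 7.14 in BAF180-deficient cells. Every stimulated array lay below every resting one, and it fell by 0.74 (adjusted p 0.0242) and 0.71 (adjusted p 0.0311), the latter a call lost, as was that of the other fall in these cells, without their resting array A. Mrpl18, whose bacterial counterpart binds ribosomal RNA of the central protuberance, went from 7.34, 7.29 and 7.54 to 6.89, 6.96 and 6.80 in WT, a difference of −0.51 with an adjusted p of 0.0243. In BAF180-deficient cells its difference of −0.36 was not called. The other fall in BAF180-deficient cells, named after its values were seen, was that of Mrps24, with −0.45 and an adjusted p of 0.0333, where WT cells had an uncalled −0.20.

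Without a block for the replicate letter, no member passed the criteria between genotypes. Between genotypes a gene was called where its Z-ratio, the difference divided by the SD of all differences, lay beyond 1.5 in either direction, its limma p was below 0.05 and its adjusted p below 0.3. By these criteria 0 of 68 members were called in resting Naïve cells, where 0.758% of all genes were, and 6 had an unadjusted p below 0.05, as did 973 of all 14246 probes. In stimulated Naïve cells 0 were called where 0.115% of all genes were, with 2 at an unadjusted p below 0.05, as were 321 probes. In resting Th2 cells 0 were called where 0.106% were, and in stimulated Th2 cells 0 where 0.096% were, and in limma 0 members had an unadjusted p below 0.05 in either, where 489 and 397 probes did. With 68 members these backgrounds leave less than 1 call to be found by share alone, so the counts of 0 do not set the members apart. The medians of the differences were 0.12, 0.04, 0.07 and −0.01 against 0.00 to 0.01 over all genes. Over all alternatives, single arrays left out included, they ranged from 0.04 to 0.20, −0.03 to 0.16, −0.01 to 0.56 and −0.33 to 0.08. Their sign was thus kept in resting Naïve cells, where the arrays of the genotypes overlapped as given below, and turned in each other state. Median centring moved the median of all genes by 0.26 in resting Th2 and −0.17 in stimulated Th2 cells, and the members' medians relative to it were 0.30 and −0.17.

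In resting Naïve cells 50 of the 68 differences were positive and 18 negative, from −0.46 to about 0.79. The members were read on the same arrays and are not replicates. Their median shift from the WT resting Naïve means was 0.13, −0.07 and 0.24 on BAF180-deficient arrays A, B and C. It was −0.12, 0.08 and 0.06 on the WT arrays, so the genotypes overlapped. The median over all genes was 0.00, and the lowest limma adjusted p of a member was 0.470. The median was 0.12 for the large and 0.10 for the small subunit. The marker sums given above overlapped between the genotypes in this state, and their part in these differences was not tested. For 5 members the 3 BAF180-deficient arrays all lay above the 3 WT arrays and for 0 below, where 7.99% of all genes had arrays that did not overlap. The 5 make up a share near that of all genes. The 3 largest were those of Mrps28, Mrps33 and Mrps24. Mrps28 read 6.06, 6.25 and 5.90 against 4.72, 5.66 and 5.48 in WT, a difference of about 0.79. It was detected on 2 of 3 WT arrays, and array A lay lowest, so the size leans on that array. With the replicate letter as a block Mrps28 was called, the 1 member so called. Mrps33 had levels of 9.35, 9.19 and 9.19 against 8.55, 8.78 and 8.54 in WT and a difference of 0.62. Mrps24 had 10.54, 10.35 and 10.78 against 10.01, 10.31 and 10.02 and a difference of 0.44. Mrps5 had the lowest difference, with 7.56, 6.78 and 7.31 against 7.56, 7.75 and 7.72. Leaving out single arrays gave 1 lower call without BAF180-deficient array A, and 2 higher calls without WT array B and again without WT array C. The 73 respiratory chain genes had a median of 0.24 and 1 call, higher, in the same comparison, and the 68 cytosolic ribosomal protein genes a median of 0.13 and 0 calls by the same criteria.

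In stimulated Naïve cells only Mrpl33 had arrays that did not overlap, where 6.59% of all genes did, with 10.48, 10.57 and 10.34 in BAF180-deficient against 10.11, 9.87 and 10.01 in WT cells and a difference of 0.47. In resting Th2 cells 4 members were higher on all BAF180-deficient arrays and 0 lower, where 10.3% of all genes had no overlap. These were led by Mrpl35, with 5.59, 5.56 and 5.44 against 5.33, 5.04 and 5.30 and a difference of 0.31, by Mrpl17 with 0.30 and by Mrps24, with 10.90, 10.92 and 10.93 against 10.74, 10.59 and 10.58 and a difference of 0.28. In stimulated Th2 cells 1 member was higher and 1 lower on all BAF180-deficient arrays, where 7.47% of all genes had no overlap. Mrpl28 read 9.40, 9.31 and 9.42 against 9.14, 9.12 and 9.13, a difference of 0.25 that became −0.11 under median centring, and Mrps2 read 6.16, 6.17 and 5.89 against 6.21, 6.31 and 6.52, a difference of −0.27. All of these shares lay near or below those of all genes.

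Whether the response of the members to a change of state differed between genotypes was tested directly. For stimulated against resting Naïve cells 0 members were called, where 0.0096% of all genes were, and for resting Th2 against resting Naïve cells 0, where again 0.0096% were. For resting Th2 against stimulated Naïve and for stimulated against resting Th2 cells 0 members were called where 0% of all genes were. In limma the unadjusted p was below 0.05 for 2, 1, 0 and 0 members, and for 329, 387, 166 and 257 of the 14246 probes. In the first comparison these were Mrps28, detected on 2 of 3 WT resting Naïve arrays, and Mrps33. Their rises were smaller in BAF180-deficient cells, by differences of about −0.85 and of −0.65, both with an adjusted p of 1. In the next it was Mrpl45, whose probe was undetected on most arrays, so no value is given. The medians of the differences between genotypes in response were −0.05, −0.02, 0.05 and −0.06, and under median centring 0.02, 0.32, 0.37 and −0.87, or 0.01, 0.13, 0.19 and −0.41 relative to all genes, so the first 2 turned sign. Over all alternatives, single arrays left out included, the medians ranged from −0.17 to 0.03, −0.13 to 0.32, −0.04 to 0.37 and −0.87 to 0.015. The sign and size of each thus depend on the scaling or on single arrays.

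The genes that work with the mitochondrial ribosome were followed through lists. On stimulation of Naïve cells 23.3% of all genes rose in WT and 22.1% in BAF180-deficient cells. Of 6 kept genes listed as mitochondrial ribosomal proteins with other kinds of symbols, 4 rose on stimulation of Naïve cells in WT and 3 in BAF180-deficient cells, with medians of 0.64 and 0.52. This list leaves out Mrpl47, given above, and Mrpl42, which the table also holds under an older symbol. Chchd1 rose by 1.48 and 1.40 and Ptcd3 by 1.33 and 1.61. Dap3, a GTP-binding protein of the small subunit, had uncalled differences of 0.32 and 0.18, and fell by 0.75 in WT and 0.80 in BAF180-deficient cells on restimulation of Th2 cells. Of 11 kept translation factors 9 rose in WT and 7 in BAF180-deficient cells, with medians of 0.98 and 0.90. Tufm, the elongation factor that delivers aminoacyl-tRNA, rose by 1.48 in WT and 1.43 in BAF180-deficient cells, and its exchange factor Tsfm by 1.71 and 1.59. Gfm1, the translocase, was undetected at rest and at least 2.10-fold higher in stimulated WT cells. In resting Th2 against stimulated Naïve cells 6 of the 11 fell in WT and 5 in BAF180-deficient cells. Of all genes 12.1% and 11.1% were lower there. Tufm fell by 1.37 and 1.31.

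Other steps of the pathway are covered by smaller lists, whose counts are to be read beside the 23.3% of all genes that rose and 21.9% that fell in WT and the 22.1% and 21.3% in BAF180-deficient cells. Of 16 kept genes of ribosome assembly and RNA modification 6 rose in WT and 7 in BAF180-deficient Naïve cells on stimulation, with medians of 0.29 and 0.36, or 0.19 and 0.23 with undetected genes at their bound. The largest rises in WT were those of Mrm3, with 1.44, and Tfb1m, with 1.29, which modify ribosomal RNA, and of Noa1, with 1.12. Of 9 genes of mitochondrial DNA transcription and replication 4 rose and 1 fell in each genotype, with medians of 0.45 and 0.35. Among them Tefm, an elongation factor of transcription, rose by 1.53 and 1.64, Ssbp1, the single-strand binding protein, by 1.13 and 1.19 and Tfam, which packages mitochondrial DNA, by 0.75 and 0.86, and the polymerase subunit Polg2 fell by 0.92 and 0.90. Of 12 kept mitochondrial aminoacyl-tRNA synthetases 4 rose and 0 fell in WT, with a median of 0.15, and 4 rose and 2 fell in BAF180-deficient cells. Rars2 rose by 1.65 and 1.36.

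Respiratory chain genes rose with the ribosomal proteins on stimulation of Naïve cells, with 54 of 73 higher and 1 lower in WT and 44 and 2 in BAF180-deficient cells and medians of 0.83 and 0.61. In resting Th2 against resting Naïve cells 45 were higher and 1 lower in WT, where 17.9% of all genes were higher and 17.6% lower. The median was 0.75. In WT resting Th2 against stimulated Naïve cells 4 were higher and 11 lower, where 11.4% of all genes were higher and 12.1% lower. The median there was −0.09, where that of the mitochondrial ribosomal proteins was −0.52. On restimulation of WT Th2 cells 0 rose and 2 fell, where 12.5% of all genes rose and 15.9% fell. The median of −0.08 turned to 0.27 under median centring. Cytosolic ribosomal protein genes had no settled direction on stimulation of Naïve cells. In this comparison 23.3% of all genes rose and 21.9% fell in WT, and 22.1% and 21.3% in BAF180-deficient cells. In WT 14 of 68 rose and 4 fell with a median of 0.14, which became −0.55 with 8 rises and 17 falls under Z-score normalization, and in BAF180-deficient cells 8 rose and 7 fell with a median of −0.03, which became 0.80 under median centring.

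Transcription factors of mitochondrial biogenesis were listed too. Of 6 kept genes 3 rose and 2 fell in WT Naïve cells on stimulation and 1 rose and 2 fell in BAF180-deficient cells. Over all genes 23.3% rose and 21.9% fell in WT, and 22.1% and 21.3% in BAF180-deficient cells. Myc, a driver of cell growth, rose by 1.42 and 1.45. Gabpa and Gabpb1, the subunits of an ETS factor that binds promoters of mitochondrial genes, rose by 0.78 and 0.74 in WT, and their differences of 0.45 and 0.41 in BAF180-deficient cells were not called. Nrf1 fell by 0.87 and 0.65 and the coactivator Ppargc1b by 1.19 and 1.50. On restimulation of Th2 cells Gabpb1 rose by 2.28 and 2.37, Myc by 2.13 and 2.00 and Gabpa by 1.00 and 1.01, and the other 3 were not called in either genotype.

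The promoters of the members were searched for motifs of these factors. RefSeq promoters of the build GRCm38.p6 ran from 250 bases before to 50 bases after each gene's start. They were at hand for 63 of the 72 members, matched by gene ID, and for 27025 genes in all. Those of Mrpl13, Mrpl15, Mrpl19, Mrpl38, Mrpl4, Mrpl54, Mrps28, Mrps34 and Mrps35 were missing. Both strands were searched for 4 motifs. GCGCANGCG, the core of the NRF1 motif, was found for 14 members, or 22.2%, against 7.03% of the 27025 genes. This background, used for each motif, was not limited to genes detected on the arrays. CCGGAAGT, bound by ETS factors such as GABP, was found for 12 members, or 19%, against 4.31%. AAGATGGCG, the YY1 motif, was found for 7 members, or 11.1%, against 1.64%, and CACGTG, the E-box bound by Myc and others, for 5 members, or 7.94%, against 8.09%. For 22 members the promoter overlapped that of a gene on the other strand. Mrpl46 and Mrps11 share a promoter region in this way, as do Mrps12 and Sars2, and Mrpl43 and Twnk. A match describes the letters alone, and its relation to the changes in level was not tested.

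The 250 bases before the start are shown for 5 members, with motifs on either strand in capitals. They are those with a motif among the 8 with the largest rises in WT Naïve cells. Mrps22 holds an ETS motif starting 11 bases before the start, at chr9:98601680-98601929 on the minus strand. Mrpl20 holds an E-box at 33 bases, at chr4:155802628-155802877 on the plus strand. Mrpl17 holds NRF1 motifs at 49 and 11 bases, at chr7:105811088-105811337 on the minus strand. Mrpl12 holds an NRF1 motif at 80 bases, at chr11:120484387-120484636 on the plus strand. Mrpl36 holds an E-box at 43 and a YY1 motif at 31 bases, at chr13:73330759-73331008 on the plus strand. Mrps6 and Mrps10 hold none of the 4 motifs in this window.
Mrps22: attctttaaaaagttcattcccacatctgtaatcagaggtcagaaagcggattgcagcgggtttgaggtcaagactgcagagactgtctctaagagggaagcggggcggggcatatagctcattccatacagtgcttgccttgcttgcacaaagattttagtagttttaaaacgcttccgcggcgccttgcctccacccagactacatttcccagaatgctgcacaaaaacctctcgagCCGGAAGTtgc
Mrpl20: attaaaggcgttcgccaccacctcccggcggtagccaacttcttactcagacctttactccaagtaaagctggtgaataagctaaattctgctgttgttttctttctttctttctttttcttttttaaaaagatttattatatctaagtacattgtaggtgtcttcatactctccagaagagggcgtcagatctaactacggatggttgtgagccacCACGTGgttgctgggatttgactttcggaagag
Mrpl17: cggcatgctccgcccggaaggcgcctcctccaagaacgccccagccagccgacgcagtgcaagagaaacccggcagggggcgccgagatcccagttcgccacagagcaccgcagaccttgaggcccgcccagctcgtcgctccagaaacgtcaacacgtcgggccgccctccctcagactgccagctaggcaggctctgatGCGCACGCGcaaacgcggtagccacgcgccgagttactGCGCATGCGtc
Mrpl12: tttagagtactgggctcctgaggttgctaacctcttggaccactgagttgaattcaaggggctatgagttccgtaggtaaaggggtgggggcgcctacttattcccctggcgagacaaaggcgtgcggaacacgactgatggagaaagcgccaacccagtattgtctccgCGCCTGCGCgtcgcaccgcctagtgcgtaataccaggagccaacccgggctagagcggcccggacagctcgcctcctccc
Mrpl36: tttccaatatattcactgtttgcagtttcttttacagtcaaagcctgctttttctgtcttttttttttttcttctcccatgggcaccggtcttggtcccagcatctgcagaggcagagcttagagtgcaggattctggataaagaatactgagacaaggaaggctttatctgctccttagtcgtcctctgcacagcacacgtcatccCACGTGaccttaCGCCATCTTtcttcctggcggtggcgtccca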

How the data were processed

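The 24 arrays (8 groups of 3) gave probe intensities and detection p-values. The intensity values were deposited as the authors exported them from GenomeStudio (version 1.6.0 in the submitters' processing notes), averaged over beads and not normalized, and each deposited detection p-value compares a probe with the array's negative controls. Values the study made by Z-score normalization were not used.

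Intensities were background-corrected, quantile-normalized and then turned to log2 by neqc of limma 3.58.1 in R 4.3.3, with an offset of 16 and the background estimated from the detection p-values. Probes with a detection p of 0.02 or less on at least 1 array were kept. Between 8047 and 10689 probes, and 71 to 93 of the members' probes, were detected per array. Replicate arrays correlated at 0.949 to 0.989. Current gene names came from RefSeq by gene ID (16938 probes), accession (7420), symbol (465) or synonym (553), and 321 probes kept the table's name.

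One limma model with the 8 group means (16 residual degrees of freedom) was fitted to all kept probes, with moderated two-sided tests and Benjamini-Hochberg adjustment over all of them. Genotypes were compared by the study's cutoffs for Z-ratio, p and FDR, applied here to log2 differences, limma p and Benjamini-Hochberg values in place of the study's Z-scores and their tests, and states by an adjusted p below 0.05. With 3 arrays against 3 an exact permutation test cannot go below a p of 0.1. The members, the lists (subunits, bacterial counterparts, stalk, exit site, partners, cell type markers) and the rule for naming genes were chosen with earlier results of these data known. Named were, in each comparison of states, the 8 largest rises and 6 largest falls among called members in WT, between genotypes any called member and up to 3 each way without overlap, stalk and exit site genes, and up to 3 called genes each way per partner list. The method was tested on simulated data, the outcome of which is not reported here.

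The study names 3 pairs of mice without tying letters to them, so the letters were checked for pairing by correlating deviations from the group means. Every letter's correlation exceeded 0.1 in 4 comparisons: BAF180-deficient against WT in stimulated Naïve (lowest 0.251) and stimulated Th2 cells (0.186), and, in BAF180-deficient cells, resting Th2 against resting Naïve (0.131) and stimulated against resting Th2 (0.29). Arrays with different letters correlated at up to 0.271, 0.393, −0.05 and 0.14 in these comparisons. In stimulated Naïve and stimulated Th2 cells this exceeded the lowest value of a shared letter. A block for the letter moved no count there or in the others of the 4 by over 1.5 times. Alternatives covered the normalization, offset, filter, probe choice, call rule, samples fitted, block and single arrays.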

Additional observations from a re-analysis of the deposited data

How the results depend on the processing

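Signal over background limits the members near the detection limit, and 3 arrays a group limit all. Counts of called members stayed within 1.5 times under the alternatives run, except for those given here, and the cause was not tested. Median centring gave 61 called members (61 higher) for resting Th2 against resting Naïve cells in the mutant, 6 in WT and 2 in the mutant for resting Th2 against stimulated Naïve cells, and 4 and 3 for stimulated against resting Th2 cells. The cutoffs used for genotypes, stricter in size, left 23 in WT and 18 in the mutant for stimulated against resting Naïve, 6 and 2 for resting Th2 against resting Naïve, 15 and 14 for resting Th2 against stimulated Naïve and 2 and 1 for stimulated against resting Th2 cells. With the replicate block, mutant against WT resting Naïve cells gave 1 called member in place of 0, Mrps28, higher, where the study names pairs of mice but the letters did not deviate together on every pair, and the block moved no other count by over 1.5 times.

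Leaving out single arrays gave 0 to 2 calls between genotypes in resting Naïve cells (1 without mutant array A, 2 without WT array B or C) and 0 in the other 3 states and for all differences in response. For stimulated against resting Naïve cells it gave 60 to 63 in WT and 54 to 59 in the mutant, for resting Th2 against resting Naïve 37 to 43 and 21 to 35 (21 without mutant resting Th2 array C), for resting Th2 against stimulated Naïve 24 to 31 and 19 to 26, and for stimulated against resting Th2 cells 10 to 12 and 5 to 9 (5 and 7 without mutant resting Th2 array A and B).

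Signs turned for Mrps5 in resting Th2 against resting Naïve cells, to 0.15 in the mutant under Z-score normalization and to 0.99 in the mutant and 0.44 in WT under median centring, for Mrpl38 in the same comparison to 0.27 in WT and 0.80 in the mutant, and for Mrpl28 between genotypes in stimulated Th2 cells to −0.11, both under median centring. Of 1224 values of named members between states under alternatives, 1094 kept their sign and call, 122 lost the call and 3 gained it, and of 162 between genotypes 157 kept both and 4 gained a call. Taking log2 before the quantile step, chosen after seeing the data, moved no count by over 1.5 times. A block for the chip was not run, since the table names no chip.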
